A study of Mus musculus with 9 samples.

Results

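The Cxcl genes encode CXC chemokines, the secreted attractants of leukocytes. They were followed in cultured myoepithelial cells of the mouse trachea with and without a Lef-1 knock-in allele. Every row of the deposited expression table whose symbol is Cxcl and a number was taken, and 10 of the 13336 genes met this rule: Cxcl1, Cxcl2, Cxcl5, Cxcl9, Cxcl10, Cxcl11, Cxcl12, Cxcl13, Cxcl14 and Cxcl16. Cxcl3, Cxcl15, Cxcl17 and the CXC ligand genes with other names, Pf4 and Ppbp, have no row and were not analysed here. The rule used no difference between groups, but the authors' table leaves out genes with a mean under 3 SD in both groups. Of the 10 members, 6 met that condition in both groups, Cxcl13 and Cxcl2 met it in Lef1KI alone, and Cxcl9 and Cxcl11 met it in WT alone.

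Messenger RNA was sequenced from 5 libraries labelled Lef1KI (A to E in the table) and 4 labelled WT (A, B, E and D), whose letters do not pair them. All mice carried ACTA2-CreERT2, a tamoxifen-inducible recombinase under the promoter of smooth muscle actin, which myoepithelial cells express. The recombinase therefore acts only in cells in which that promoter was active. Whether all cells in the libraries descend from such cells was not tested. WT mice also carried the ROSA-TG reporter, and Lef1KI mice carried Lef-1KI+/+. Every animal received tamoxifen for 5 days, gland cells of 3 to 5 mice were pooled per culture, and cells were expanded to passage 1 on laminin-rich conditioned medium. All cultures of both groups held Y-27632 at 10 µM and DMH-1, A83-01 and CHIR 99021 at 1 µM each, of which the last 3 inhibit BMP receptors, TGF-beta receptors and GSK3. WT cells were sorted as GFP-positive and Lef1KI cells as GFP-negative, so gate and genotype cannot be told apart. Neither age nor strain background is given in the sources used here.

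CXC chemokines bind G protein-coupled receptors on leukocytes, and the receptor sets which cell follows the gradient. The ligands Cxcl1, Cxcl2 and Cxcl5 bind Cxcr2 and recruit neutrophils, and epithelial cells release them after IL-1, IL-17 or bacterial signals through NF-kB. Cxcl9, Cxcl10 and Cxcl11 are induced by interferons and attract T cells that carry Cxcr3. Cxcl12 and Cxcl13 are made without infection by stromal cells of lymphoid organs and marrow, where Cxcl12 holds Cxcr4-bearing cells and Cxcl13 guides B cells through Cxcr5.

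Of the 10 members, 7 lie on chromosome 5 of mm10, in 2 groups of neighbours and 1 gene apart. The neutrophil ligands stand together on the plus strand, with Cxcl5 at chr5:90759360-90761624, Cxcl1 at chr5:90891241-90893115 and Cxcl2 at chr5:90903871-90905938. Cxcl1 and Cxcl2 are 10.756 kb apart. The interferon-type ligands stand together on the minus strand, with Cxcl9 at chr5:92321347-92328079, Cxcl10 at chr5:92346638-92348889 and Cxcl11 at chr5:92359544-92365485. Cxcl11 is annotated as a polymorphic pseudogene in GENCODE M21 and the other 9 members as protein coding. Cxcl13 lies alone, 3.59 Mb beyond Cxcl11, at chr5:95956951-95961068 on the plus strand. Cxcl12 is at chr6:117168535-117181367 on the plus strand, Cxcl16 at chr11:70453983-70459984 on the minus strand and Cxcl14 at chr13:56288643-56296551 on the minus strand.

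The promoters of members of the 3 ligand classes are printed to show which of 3 elements, of NF-kB, of interferon response and of Lef and Tcf factors, each holds. Each window holds 200 bases, from 230 to 31 bases before the RefSeq transcription start, 5′ to 3′ on the gene's strand (RefSeq, GRCm38.p6). The windows are chr5:90891015-90891214, chr5:90903669-90903868, chr6:117168305-117168504 and chr5:95956709-95956908 on the plus strand, and chr5:92348920-92349119 on the minus strand. Capitals mark matches to the NF-kB consensus, the binding element of the Rel transcription factors, or to CTTTGA, the core element of Lef and Tcf factors. Both strands were searched, so TCAAAG marks CTTTGA on the opposite strand.
Cxcl1: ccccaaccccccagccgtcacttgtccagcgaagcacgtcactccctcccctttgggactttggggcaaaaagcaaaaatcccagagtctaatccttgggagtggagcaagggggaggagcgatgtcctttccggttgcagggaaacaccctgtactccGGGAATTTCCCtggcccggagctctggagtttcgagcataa
Cxcl2: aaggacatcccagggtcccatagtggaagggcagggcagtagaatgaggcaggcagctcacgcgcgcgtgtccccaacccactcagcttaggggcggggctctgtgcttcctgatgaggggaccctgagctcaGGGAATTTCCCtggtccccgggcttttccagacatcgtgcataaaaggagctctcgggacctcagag
Cxcl10: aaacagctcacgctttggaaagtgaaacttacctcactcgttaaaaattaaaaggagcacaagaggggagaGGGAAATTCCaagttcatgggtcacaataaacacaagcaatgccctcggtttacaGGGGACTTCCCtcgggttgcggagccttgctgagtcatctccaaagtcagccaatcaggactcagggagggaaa
Cxcl12: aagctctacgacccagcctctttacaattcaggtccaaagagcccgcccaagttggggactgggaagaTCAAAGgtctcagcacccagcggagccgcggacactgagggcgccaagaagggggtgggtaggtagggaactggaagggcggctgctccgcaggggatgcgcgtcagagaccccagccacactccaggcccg
Cxcl13: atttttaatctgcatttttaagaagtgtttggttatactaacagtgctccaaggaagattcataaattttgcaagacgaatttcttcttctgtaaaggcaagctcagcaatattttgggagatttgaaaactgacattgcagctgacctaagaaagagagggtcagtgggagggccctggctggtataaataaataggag

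RefSeq promoters were matched for 7 of the 10 members. The Cxcl1 and Cxcl2 windows each held an NF-kB match, which starts 71 bases before the start in Cxcl1 and 97 bases before it in Cxcl2, and each also reads as a match on the opposite strand 1 base on. Around it the windows share the run GGGAATTTCCCTGG of 14 bases, the longest shared by any pair of family promoters. Cxcl10 held NF-kB matches 159, 104 and 103 bases before the start, the last 2 overlapping. It also held GAAA, any 2 bases and GAAA, the core of the interferon-stimulated response element, 213 bases before the start. Cxcl14 held that core 172 bases before its start. Cxcl12 held a CTTTGA match on the opposite strand 162 bases before the start. Neither the Cxcl13 nor the Cxcl9 window held any of the 3 elements. Of 32851 RefSeq promoter windows of the same length, 5.84% held the NF-kB consensus, 11.4% CTTTGA and 2.33% the interferon core. A match is a run of letters, and no binding was measured.

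Lef1 stood at 227 ± 79.8 TPM (SD, n = 5) in Lef1KI and 0.448 ± 0.0763 TPM (SD, n = 4) in WT (log2 difference 7.23, limma adjusted p = 5.2e-08). TPM is a length-corrected share of all transcripts, so levels can be compared between genes. Each difference is the Lef1KI mean less the WT mean of log2(TPM + 1). It was tested with limma on all 13336 genes, and genes called, risen or fallen have a Benjamini-Hochberg adjusted p under 0.05. The median difference of all genes was 0.14, and −0.02 after median centring of the libraries. Of the genes called, 84.5% were higher in Lef1KI, and 64.6% after that centring. The basal keratins Krt5 and Krt14 were high in both groups, at 8586 ± 829.4 and 7217 ± 457 TPM in Lef1KI and 7008 ± 2442 and 6258 ± 362 TPM in WT (n = 5 and 4), while Acta2 stood at 62.3 ± 31.2 against 129 ± 41.0 TPM (adjusted p = 0.0834, and called without Lef1KI C at a difference of −1.36). Of 10 fixed myoepithelial markers 7 have a row, and Cnn1, Oxtr and Actg2 do not. Of the 7, 1 was called higher and 1 lower, beside 6.73% and 1.24% of all genes. Depth cannot be read from TPM, so the spread between libraries is the error given.

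The lymphoid ligands were the members that rose. Cxcl13, like Cxcl2, has a row only because it met the authors' filter in Lef1KI, the group where it was higher, so the counts and medians below depend on that filter. Cxcl12 and Cxcl13 were called higher, 2 of 10 members, none was called lower by limma, and 8 were not called. At an unadjusted limma p under 0.05 the count was 3, all higher, and 3169 of all 13336 genes passed that threshold in either direction. Over all genes 6.73% were called higher and 1.24% lower. The groups did not overlap for 3 members, Cxcl12, Cxcl13 and Cxcl5, and over all genes 10.0% had every Lef1KI library above every WT library. The differences of 8 members were positive and those of Cxcl14 and Cxcl16 were negative, and after median centring or trimmed-mean scaling the difference of Cxcl11 was negative too. The median difference over the members was 0.79, against 0.14 over all genes. The plot of differences shows the order of the members.

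**Figure D1:**
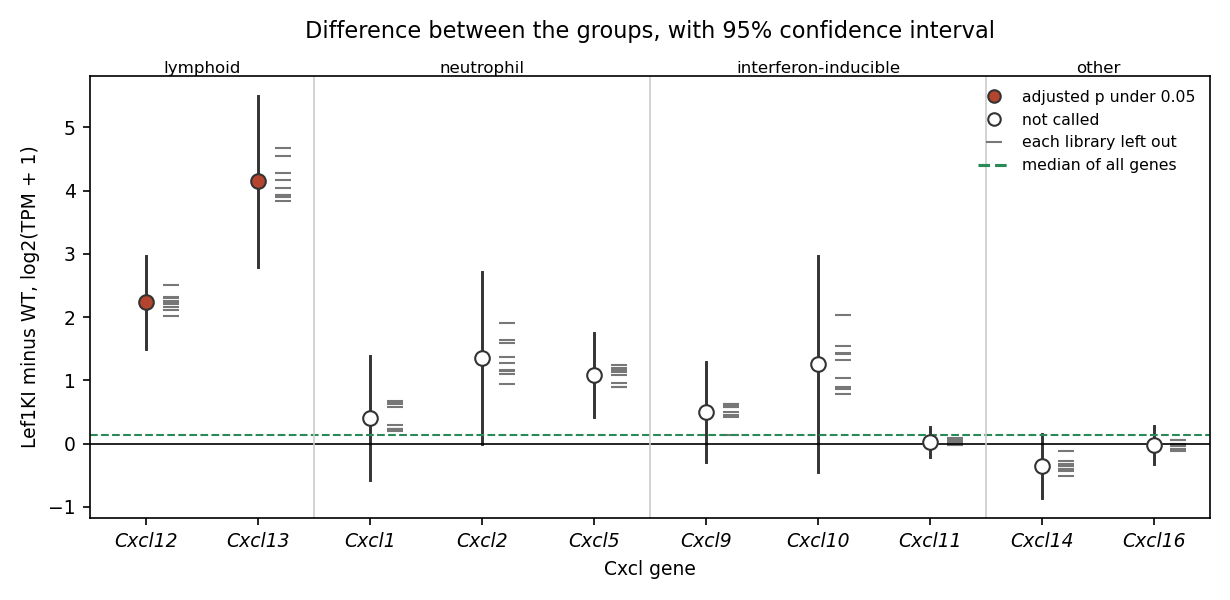
Difference between Lef1KI and WT for each of the 10 Cxcl genes, as log2(TPM + 1), with its 95% confidence interval from limma (n = 5 and 4), by ligand class. Grey ticks give the difference with each library left out, and the dashed line is the median of all genes. Cxcl13 at 4.15 and Cxcl12 at 2.24 passed the threshold, the interval of Cxcl5 (0.42 to 1.75) lies above 0 although its adjusted p of 0.0516 missed the threshold, and the intervals of the other 7 members include 0.

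Cxcl13, the attractant of B cells, had the largest difference of the family. It stood at 108.92, 78.85, 227.62, 272.31 and 36.41 TPM in Lef1KI A to E, and at 18.42, 3.24, 3.22 and 4.21 TPM in WT A, B, E and D. Every Lef1KI library lay above every WT library, and WT A lay far above the other 3 WT libraries. The mean was 145 ± 101 TPM in Lef1KI and 7.27 ± 7.45 TPM in WT (SD, n = 5 and 4), 19.9 times as high. The log2 difference was 4.15 (SE 0.613, 95% interval 2.79 to 5.5, limma adjusted p = 0.00272). The exact permutation p was 0.0159, which no split of 5 and 4 libraries can go below. Leaving out each library in turn gave 3.83 to 4.67, the highest without WT A, and Cxcl13 was called each time. In WT its mean log2 value was under 3 SD, so this test is on a gene that the filter kept through Lef1KI alone.

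Cxcl12, the ligand of Cxcr4, stood at 43.19, 35.32, 78.34, 62.20 and 19.57 TPM in Lef1KI A to E and at 7.63, 7.01, 8.80 and 10.17 TPM in WT A, B, E and D. The WT libraries were close together, and the lowest Lef1KI library, E, still lay above the highest WT library. The mean was 47.7 ± 23.0 TPM in Lef1KI and 8.40 ± 1.39 TPM in WT (SD, n = 5 and 4), 5.68 times as high. The log2 difference was 2.24 (SE 0.333, 95% interval 1.5 to 2.97, limma adjusted p = 0.00277, exact permutation p = 0.0159), and 2.03 to 2.51 when each library was left out in turn. Summed, Cxcl12 and Cxcl13 made up 11.6% to 59.2% of the family's TPM in Lef1KI libraries and 3.16% to 6.31% in WT libraries.

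**Figure D2:**
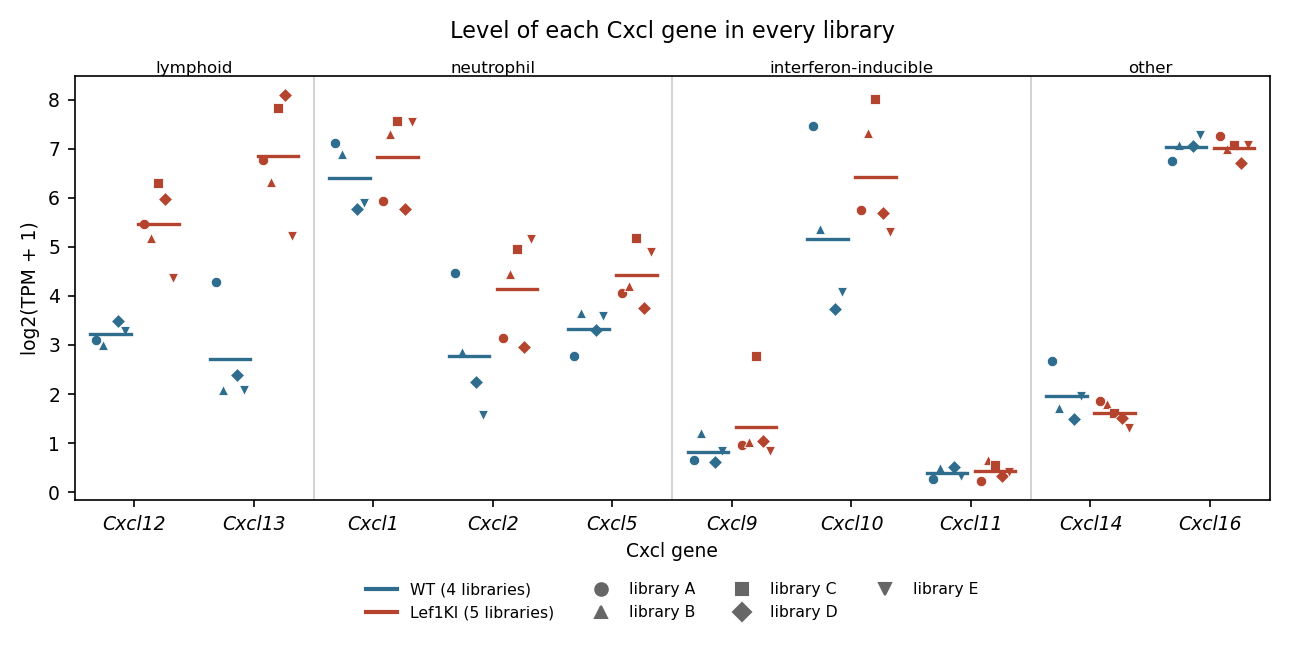
Level of each of the 10 Cxcl genes in each library as log2(TPM + 1), WT (n = 4) beside Lef1KI (n = 5), by ligand class, with a line at each group's mean and symbols for the library letters, which do not pair libraries across groups. The points of Cxcl12, Cxcl13 and Cxcl5 separate by group, those of the other 7 members overlap, and Cxcl16 varies least among the abundant members.

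None of the 3 neutrophil ligands was called, and their differences were all positive. Cxcl5, made by epithelial cells in inflamed airways, stood at 15.70, 17.43, 35.05, 12.57 and 28.81 TPM in Lef1KI A to E and at 5.88, 11.60, 10.97 and 8.94 TPM in WT A, B, E and D. The groups did not overlap, though Lef1KI D lay just above WT B. The mean was 21.9 ± 9.57 against 9.35 ± 2.58 TPM (SD, n = 5 and 4), with a log2 difference of 1.09 (SE 0.301, limma adjusted p = 0.0516, exact permutation p = 0.0159). It missed the threshold, and passed it without Lef1KI A (difference 1.18) or without Lef1KI D (1.25), with adjusted p between 0.0338 and 0.113 over all alternatives.

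Cxcl1, the most abundant neutrophil ligand here, stood at 60.40, 156.30, 187.78, 53.81 and 186.76 TPM in Lef1KI A to E and at 136.87, 117.56, 58.09 and 53.39 TPM in WT A, B, E and D. High and low libraries occurred in both groups, and 3 of the 5 Lef1KI libraries lay above the highest WT library. The log2 difference was 0.41 (SE 0.444, 95% interval −0.57 to 1.39, limma adjusted p = 0.587). It was 0.25 after median centring and ran from 0.20 without WT D to 0.68 without Lef1KI D over the libraries left out. Cxcl2, its close relative, stood at 7.81, 20.93, 30.11, 6.77 and 34.57 TPM in Lef1KI and at 21.08, 6.20, 1.98 and 3.72 TPM in WT, with the libraries named as before. WT A lay among the higher Lef1KI libraries and the other WT libraries below all of them. The log2 difference was 1.35 (SE 0.617, 95% interval −0.01 to 2.71, limma adjusted p = 0.214, exact permutation p = 0.0952). Of the stretches of 50 bases in Cxcl2 transcripts, 5.84% also occur in Cxcl3, so part of its reads could be assigned to either gene, while Cxcl1 shared none with any other gene.

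The interferon-type ligands overlapped between the groups. Cxcl10 stood at 53.13, 159.11, 258.35, 50.78 and 38.56 TPM in Lef1KI A to E and at 175.47, 40.19, 15.83 and 12.36 TPM in WT A, B, E and D. WT A was above all Lef1KI libraries but C, WT B lay between Lef1KI E and D, and WT E and D were below every Lef1KI library. The log2 difference was 1.26 (SE 0.772, 95% interval −0.44 to 2.96, limma adjusted p = 0.34), and the adjusted p ran from 0.042 to 0.592 over all alternatives. The difference was 2.03 without WT A and 0.79 without WT D, the highest and lowest when single libraries were left out, and was called in neither. Cxcl9 stood at 0.95, 1.03, 5.87, 1.05 and 0.78 TPM in Lef1KI and at 0.58, 1.29, 0.79 and 0.52 TPM in WT. Lef1KI C was far above the other 8 libraries, and without it the difference of 0.50 became 0.14 (limma adjusted p = 0.408 with all libraries). With a pseudocount of 0.1 it was 0.80. Cxcl11 lay between 0.17 and 0.58 TPM in Lef1KI and between 0.20 and 0.42 TPM in WT, a level too low to read a difference from (0.03, adjusted p = 0.878).

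The remaining members attract other cells and did not pass the test. Cxcl16, a membrane-bound ligand of Cxcr6 that also acts as a scavenger receptor, stood at 152.63, 126.46, 134.02, 103.67 and 134.27 TPM in Lef1KI A to E and at 107.15, 134.40, 154.37 and 132.39 TPM in WT A, B, E and D. Its 2 groups covered nearly the same range. The log2 difference was −0.02 with a 95% interval of −0.32 to 0.28 (limma adjusted p = 0.945), so a difference beyond 0.32 in either direction lies outside the interval. Cxcl14, a chemokine of resting epithelium, stood at 2.63, 2.46, 2.07, 1.84 and 1.47 TPM in Lef1KI and at 5.41, 2.29, 2.91 and 1.82 TPM in WT. Only WT A stood apart, and the difference of −0.35 (95% interval −0.85 to 0.15, limma adjusted p = 0.37) was −0.11 without it and −0.15 with library weights.

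By class, the median log2 difference was 3.19 for the 2 lymphoid ligands, 1.09 for the 3 neutrophil ligands, 0.50 for the 3 interferon-type ligands and −0.18 for Cxcl14 and Cxcl16, beside 0.14 for all genes. The interferon-type median was 0.14 without Lef1KI C, 0.80 with a pseudocount of 0.1 and 0.88 with a filter of 1 TPM, which removes Cxcl11. Summed TPM of the lymphoid ligands was 193 ± 122 in Lef1KI and 15.7 ± 7.12 in WT, and that of the neutrophil ligands 171 ± 87.6 and 109 ± 48.3 (SD, n = 5 and 4). Interferon-type ligands summed to 114 ± 97.2 and 62.1 ± 77.2 TPM, and Cxcl14 with Cxcl16 to 132 ± 17.9 and 135 ± 18.3 TPM. The whole family summed to 445.53, 598.47, 959.67, 565.25 and 481.52 TPM in Lef1KI A to E and to 478.69, 324.19, 257.22 and 227.94 TPM in WT A, B, E and D. WT A, where Cxcl10 alone gave 175.47 TPM, fell among the Lef1KI libraries, and the other 3 WT libraries lay below them.

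**Figure D3:**
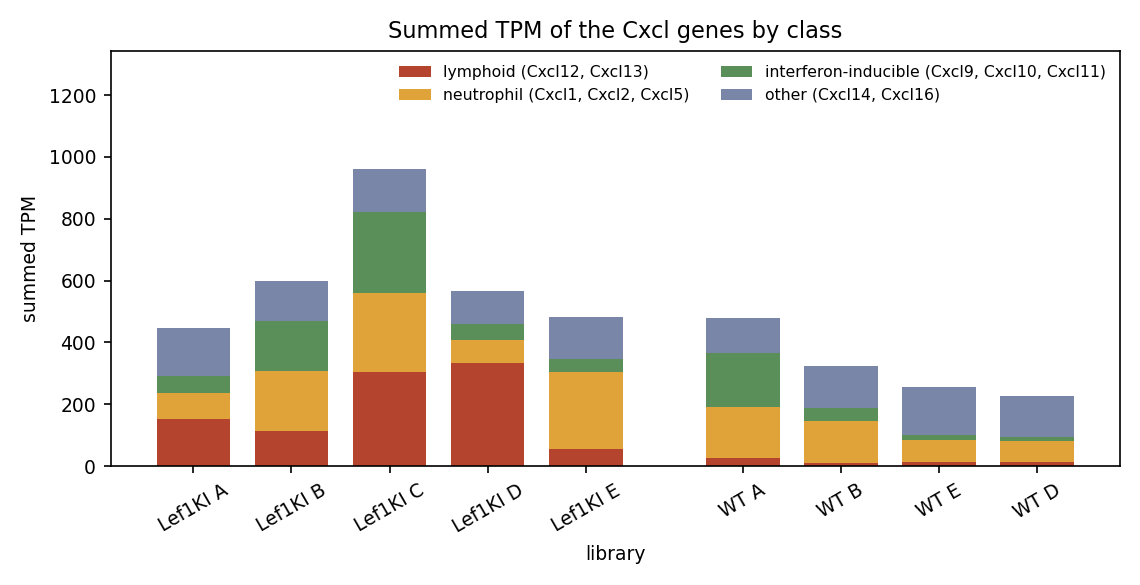
Summed TPM of the Cxcl ligand classes in each library, as stacked bars from 0, for Lef1KI A to E and WT A, B, E and D. The lymphoid part spans 55.98 to 334.51 TPM in Lef1KI and 10.25 to 26.05 TPM in WT, while the part of Cxcl14 and Cxcl16 spans 105.51 to 155.26 and 112.56 to 157.28 TPM.

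The order of levels within the family differed from library to library. By mean TPM, Cxcl13 came first in Lef1KI, followed by Cxcl16, Cxcl1, Cxcl10, Cxcl12, Cxcl5, Cxcl2, Cxcl14, Cxcl9 and Cxcl11. In WT the order was Cxcl16, Cxcl1, Cxcl10, Cxcl5, Cxcl12, Cxcl2, Cxcl13, Cxcl14, Cxcl9 and Cxcl11. Among Lef1KI libraries only 2 pairs of neighbours in this order had ranges that did not overlap, Cxcl2 over Cxcl14 and Cxcl9 over Cxcl11. In WT these were Cxcl10 over Cxcl5, Cxcl14 over Cxcl9 and Cxcl9 over Cxcl11. The highest member was Cxcl16 in Lef1KI A, Cxcl10 in B and C, Cxcl13 in D and Cxcl1 in E. In WT it was Cxcl10 in A and Cxcl16 in B, E and D.

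Within a library, the log2 value of Cxcl13 less that of Cxcl1 ran from −2.33 to 2.32 in Lef1KI and from −4.81 to −2.83 in WT, with no overlap. Cxcl12 less Cxcl16, which is little moved between libraries, ran from −2.72 to −0.73 in Lef1KI and from −4.08 to −3.58 in WT. Cxcl13 less Cxcl12 ran from 0.86 to 2.11 in Lef1KI, and in WT it was 1.17 in library A and between −1.22 and −0.92 in the other 3. Cxcl2 kept a near-constant distance from Cxcl1 in Lef1KI, −2.84 to −2.40, and a wider one in WT, −4.31 to −2.64. These are descriptions of the same values, with no test.

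The members varied more between libraries of 1 group than most genes. The residual SD of 8 of the 10 members was above that of the median gene, and for 7 it was above the 90th percentile of all genes. Cxcl10 lay at the 99.8th percentile, Cxcl13 and Cxcl2 at the 99.6th, and Cxcl16 at the 32.1st. Cxcl11, which was under 1 TPM in every library, lay lowest, at the 15.3rd. Within Lef1KI the lymphoid ligands were high in libraries C and D and lowest in E. Cxcl12 ran C, D, A, B, E from high to low and Cxcl13 ran D, C, A, B, E. Cxcl1 and Cxcl5 both ran C, E, B, A, D, and Cxcl2 ran E, C, B, A, D, so that D, the highest library for Cxcl13, was the lowest for all 3 neutrophil ligands. Among WT libraries, A was the highest for Cxcl1, Cxcl2, Cxcl10, Cxcl13 and Cxcl14 and the lowest for Cxcl5 and Cxcl16.

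Many markers of fibroblasts and of endothelium were also higher in Lef1KI. Of 15 measured fibroblast markers 13 rose and Fbln1 alone fell (−0.54), beside 6.73% of all genes called higher and 1.24% lower. Among those that rose were the collagens Col6a3 (difference 2.88), Col1a1 (2.71) and Col5a1 (2.31) and the matrix protein Dpt (2.50). The summed fibroblast markers ran from 611 to 1540 TPM in Lef1KI and from 225 to 352 TPM in WT, and all 15 had a mean of at least 1 TPM in both groups. Within Lef1KI their mean log2 level was 6.09 in C, 5.76 in D, 5.55 in A, 5.08 in B and 4.93 in E, the same order of libraries as Cxcl12. The means of the interferon list and of the non-canonical NF-kB list took that order too. When single libraries were left out, Fbln1 stayed called only without Lef1KI A or Lef1KI B, and its difference ran from −0.61 to −0.44. In bulk RNA, fewer cells of a type and less RNA per cell cannot be told apart.

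Of 11 measured endothelial markers 7 rose and none fell, beside 6.73% of all genes called higher. Ramp2 rose by 2.10, Kdr by 1.79, Eng by 1.77 and Plvap by 1.33. Of these, Kdr and Plvap have a row only because they met the authors' filter in Lef1KI, where they were higher. Summed endothelial markers ran from 47.9 to 136 TPM in Lef1KI and from 23.6 to 33.9 TPM in WT. Of the 11 measured markers, 10 had a mean of at least 1 TPM in Lef1KI and 4 did in WT. Within Lef1KI the mean log2 level of the 11 ran D, C, E, B, A, another order than that of either lymphoid ligand. Of 19 leukocyte markers 8 have a row, and the defining Ptprc and Csf1r are among the 11 that do not. Lyz2 (1.95), Cd14 (0.88) and Coro1a (0.45) rose, beside 6.73% of all genes called higher. Lyz2 and Coro1a have a row only because they met the authors' filter in Lef1KI, where they were higher. The macrophage gene Cd68 stood at 93.7 ± 82.1 against 180 ± 60.9 TPM (difference −1.18, limma adjusted p = 0.136). Cd68 was called lower without Lef1KI A (−1.59) and with library weights. The differences of 6 of the 8 were positive, and summed leukocyte markers ran from 117 to 290 TPM in Lef1KI and from 206 to 297 TPM in WT. Coro1a was not called without WT B or without WT E, with differences from 0.39 to 0.495 over the libraries left out, nor after median centring (0.29). The part of these cell types in the rise of Cxcl12 and Cxcl13 was not tested.

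**Figure D4:**
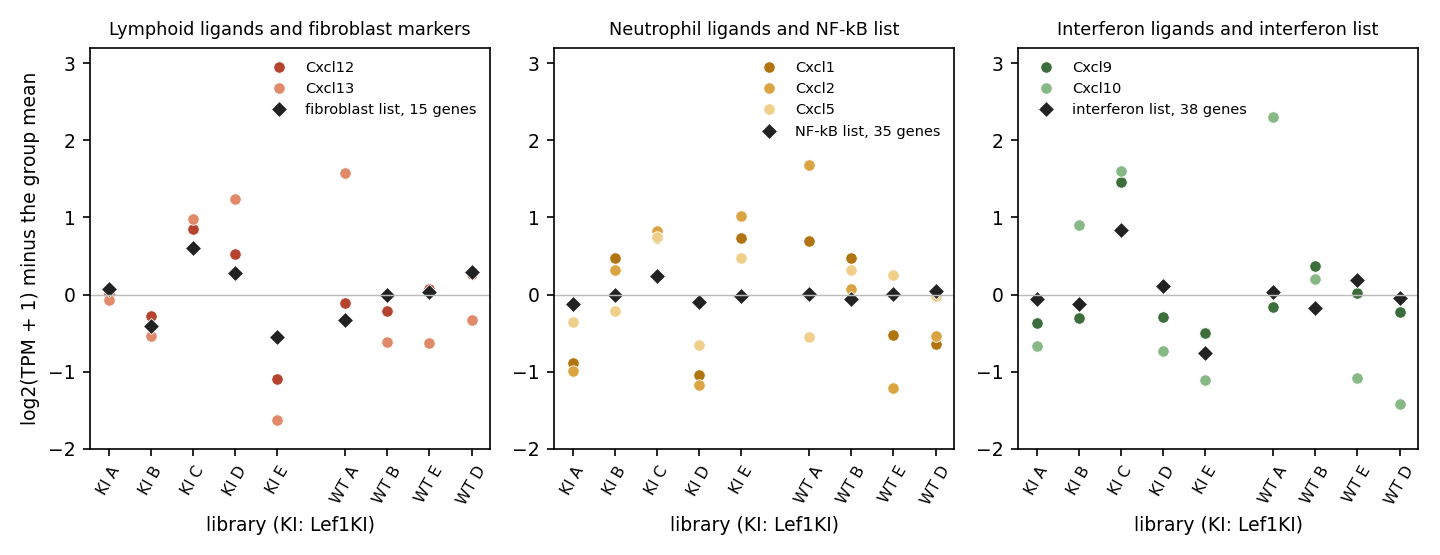
Deviation of each library (KI for Lef1KI) from its own group mean, as log2(TPM + 1), for the lymphoid ligands with the mean of 15 fibroblast markers, the neutrophil ligands with the mean of 35 NF-kB, IL-1 and IL-17 genes, and Cxcl9 and Cxcl10 with the mean of 38 interferon genes; letters do not pair libraries across groups. Circles stand for chemokines and diamonds are list means, and in Lef1KI the fibroblast mean takes the same order of libraries as Cxcl12 while the NF-kB mean varies little.

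Of 10 CXC and atypical receptors 3 have a row, and Cxcr1, Cxcr2, Cxcr3, Cxcr5, Cxcr6, Ackr1 and Ackr2 do not, and a gene without a row may be variable rather than low. The 3 measured receptors were low, and each has a row only because it met the authors' filter in Lef1KI, where it was higher. Ackr3, the scavenger of Cxcl12, stood at 2.53 ± 1.14 TPM in Lef1KI and 1.24 ± 0.727 TPM in WT (SD, n = 5 and 4; log2 difference 0.65, limma adjusted p = 0.167). Cxcr4, the signalling receptor of Cxcl12, stood at 0.61 ± 0.128 against 0.295 ± 0.157 TPM. Its groups did not overlap, and over all genes 10.0% had every Lef1KI library above every WT library. For Cxcr4 the difference was 0.32 and the limma adjusted p was 0.0948. Ackr4, a scavenger of CCL chemokines and Cxcl13, stood at 0.244 ± 0.0856 against 0.138 ± 0.0585 TPM (0.13, adjusted p = 0.344). By limma no receptor was called, and 2 of the 3 had an unadjusted p under 0.05, as did 3169 of all 13336 genes.

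Genes of the pathways that are known to induce the ligands were counted by list, beside 6.73% of all genes called higher. Of 35 measured NF-kB, IL-1 and IL-17 genes 10 rose and none fell, with a median difference of 0.38. Il1r1, the IL-1 receptor, rose from 2.45 ± 0.73 to 9.89 ± 3.96 TPM (difference 1.61, limma adjusted p = 0.00398). The inhibitor Nfkbie (1.13), the IL-1 co-receptor Il1rap (0.81) and the transcription factor Cebpd (0.80) rose too. The count was 5 after median centring and 4 after trimmed-mean scaling. It was 4 without WT B or WT E, 5 without Lef1KI C or WT D, and 6 without Lef1KI B or WT A. Over all 13336 genes the number called higher fell in these settings too. It went from 898 to between 565 (without WT E) and 777 (without Lef1KI B). Of the feedback genes of NF-kB, Nfkbia and Tnfaip3 did not pass the test (limma adjusted p = 0.954 and 0.731). Nfkbia stood at 262 ± 80.2 against 277 ± 170 TPM and Tnfaip3 at 20.4 ± 5.04 against 20.3 ± 15.9 TPM. WT A was the highest library for both, at 525.61 and 43.58 TPM. Over the libraries left out their differences ran from −0.17 to 0.40 and from −0.06 to 0.67.

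Of 17 measured genes of lymphotoxin and non-canonical NF-kB signalling, the route known to sustain Cxcl13 and Cxcl12 in lymphoid stroma, 6 rose and none fell, with a median difference of 0.46. Tnfrsf11b, the decoy receptor osteoprotegerin, rose from 2.20 ± 1.72 to 21.2 ± 11.5 TPM (difference 2.76, limma adjusted p = 0.00787). Ccl19, another lymphoid chemokine (2.18), Tnfsf11, which encodes RANKL (2.01), and Tnfsf13b, which encodes the B cell factor BAFF (0.90), rose as well. In WT the levels of Ccl19 and Tnfsf13b were low, at 0.775 ± 0.171 and 0.09 ± 0.0753 TPM. Tnfrsf11b and Tnfsf13b have a row only because they met the authors' filter in Lef1KI, where they were higher. This list's count depends on that filter. The count was 5 after median centring, 4 after trimmed-mean scaling and 4 to 9 over the libraries left out. All genes called higher then numbered 605, 685 and 565 to 1416. The lymphotoxin genes Lta and Ltb have no row, nor do Tnfsf14, Tnfrsf11a, Cd40, Ccl21a and Madcam1 of this list.

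Of 38 measured interferon genes 3 rose and none fell, the GTPase gene Iigp1 (difference 1.84), Jak2 (0.84) and Ifnar1 (0.70), with a median of 0.32. This share is close to the 6.73% of all genes. The count was 7 without Lef1KI E, where 908 of all genes were called higher. Jak2 was not called without WT B or without WT E, with differences from 0.71 to 0.91 over the libraries left out. Within Lef1KI the mean of this list ran C, D, A, B, E, and Cxcl10 ran C, B, A, D, E.

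Of 18 measured genes that cleave, bind or present the ligands 3 rose and none fell, with a median of 0.29, beside 6.73% of all genes called higher. Mmp2, a protease known to cut Cxcl12, rose from 33.1 ± 7.40 to 171 ± 70.9 TPM (difference 2.25, limma adjusted p = 0.00167). The heparan sulphate proteoglycan Gpc3 (1.998) and Adam17 (0.38), a sheddase, were called as well. Gpc3 has a row only because it met the authors' filter in Lef1KI, where it was higher. The count was 1 without Lef1KI D, WT A or WT E, where 711, 773 and 565 of all genes were called higher. Gpc3 was not called without Lef1KI B, Lef1KI D, WT A or WT E (1.61 to 2.29 over the libraries left out), and Adam17 stayed called only without Lef1KI A (0.33 to 0.41). Adam17 was also not called after median centring (0.22), trimmed-mean scaling (0.23) or a filter of 1 TPM.

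The genes most like a member were those whose log2 values, centred over the 9 libraries, had the smallest root mean square difference from the member's among 11161 genes. For Cxcl12 they were Mmp2 (0.187), Spon1 (0.201) and Scara5 (0.212), against a spread of 1.23 for Cxcl12 itself. For Cxcl13, whose own spread was 2.29, they were Ms4a4d (0.859), Ctla2a (0.889) and Gbp2b (0.902), a looser likeness than that of Cxcl12. For Cxcl1 they were Itgb6 (0.275) and Tagln2 (0.318), for Cxcl5 Igsf9 (0.209), Pvr (0.222) and Stambpl1 (0.231), and for Cxcl16 Gmeb1 (0.0633), Taok1 (0.0784) and Sars (0.0814). The own spreads of Cxcl1, Cxcl5 and Cxcl16 were 0.743, 0.707 and 0.184. When values were centred within each group, near genes were Nfasc (0.126), Parp9 (0.143) and Spon1 (0.144) for Cxcl12 and Rarres2 (0.368), Fabp4 (0.378) and Calm4 (0.435) for Cxcl13. They were Basp1 (0.181), the chemokine gene Ccl20 (0.251) and Itgb6 (0.273) for Cxcl1, Pvr (0.155) and Ccnyl1 (0.165) for Cxcl5, and Slc25a28 (0.0582), Gmeb1 (0.0613) and Gmeb2 (0.0669) for Cxcl16. All points of a library share its RNA and its depth, so these are descriptions.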

How the data were processed

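Per the submitters' processing notes the authors quantified the reads with RSEM on mm10; its version, the aligner and which annotation was used were not given in the sources used here. As deposited, values are log2(TPM + 1), and each library summed to 99.6% to 99.8% of the full TPM total. From the values, the authors kept genes with a mean of at least 3 SD in at least 1 group, which takes out variable genes, and 1683 of 13336 genes were below 3 SD in 1 group. Columns carry letters, so libraries were assigned to groups by name. The labels describe each library as a culture from pooled mice. The limma p-values set a group difference against the spread between these libraries, which limma adjusts by that of all genes.

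All 13336 genes were compared with limma 3.58.1 (R 4.3.3) with an intensity trend and group as the only term, two-sided, with Benjamini-Hochberg adjustment over all genes. The exact permutation test used all 126 splits into 5 and 4, with a smallest p of 0.0159. Alternatives were median centring, trimmed-mean scaling, a pseudocount of 0.1, a filter of 1 TPM, no trend, robust empirical Bayes, library weights and leaving out each library.

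The members and gene lists were chosen with earlier results of these data known. The rule for named genes took every member and measured receptor, up to 4 called genes per direction of each pathway list and of the fibroblast, endothelial and leukocyte markers by adjusted p, Lef1, Acta2, Krt5 and Krt14 as checks, and 3 genes most like each of Cxcl1, Cxcl5, Cxcl12, Cxcl13 and Cxcl16. Nfkbia, Tnfaip3 and Cd68 were named beside it, and some genes the rule takes are not reported here. Gene positions and types were read from GENCODE M21 and promoters from RefSeq (GRCm38.p6).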

Additional observations from a re-analysis of the deposited data

Results flagged for a closer look

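In 26 groups of libraries, each member and receptor in Lef1KI and in WT, the highest or lowest library was compared with the rest by Dixon's ratio. The ratio is the gap from that library to its neighbour over the whole range, both taken on log2(TPM + 1). Of the 26 groups, 2 passed the 95% critical value. At that level chance flags about 5% of groups. Cxcl13 in WT was flagged for WT A, at 18.42 TPM with a ratio of 0.862 (critical 0.829), and the difference between groups was 4.67 without that library. Cxcl9 in Lef1KI was flagged for Lef1KI C, at 5.87 TPM with a ratio of 0.895 (critical 0.71), and the difference was 0.14 without it.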

How the results depend on the processing

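Of 159 differences of members under 16 alternatives, 145 kept their direction and their side of the threshold. Cxcl12 and Cxcl13 were called in all 16, and no member was called lower in any. The number of members called was 2 or 3 except with library weights, where it was 5 (13.1% of all genes were then called higher). Those weights added Cxcl2 (difference 1.78), Cxcl5 (0.81) and Cxcl10 (2.02) to Cxcl12 and Cxcl13. Cxcl5 was also called with a pseudocount of 0.1 (1.16), a filter of 1 TPM (1.09) and robust empirical Bayes (1.09), and spanned 0.90 to 1.25 over the libraries left out. The difference of Cxcl11 reversed to −0.13 under median centring and −0.0065 under the trimmed-mean scaling. Over the libraries left out it spanned −0.026 to 0.083, and that of Cxcl16 spanned −0.12 to 0.059. NF-kB, IL-1 and IL-17 genes called higher, 10 of 35, came to 5 with median centring, 4 with trimmed-mean scaling and 4 to 13 over the libraries left out. In the same settings all genes called higher, 898 in the main fit, came to 605, 685 and 565 to 1416. Interferon genes called higher, 3 of 38, came to 9 with library weights and 2 to 7 over the libraries left out. Processing genes, 3 of 18, came to 5 with weights and 1 to 3, and receptors came to 1 with weights. Apart from fits with fewer libraries or genes, the cause of these changes was not tested.

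No paired analysis was possible because the columns carry letters and nothing ties a letter to a replicate number of the labels. TPM keep no depth, so the precision of members below 1 TPM, such as Cxcl11, is unknown.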
